A study of Drosophila melanogaster with 15 samples.

Results

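Contraction of a muscle fibre depends on the sarcomere, a repeating unit in which myosin thick filaments pull on actin thin filaments that are anchored at the Z-disc. Calcium released into the fibre binds troponin C and moves tropomyosin on the thin filament, which lets myosin attach, and the calcium pump of the sarcoplasmic reticulum then clears the calcium again. In flies, the flight, jump, leg and body wall muscles use different forms of several of these proteins. The dystrophin glycoprotein complex, whose members were mutated here, links the cytoskeleton of the muscle fibre to the matrix outside it.

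The genes described are 36 genes for thick filament, thin filament, Z-disc and calcium handling proteins, together with arginine kinase (Argk) and the muscle transcription factor Mef2. They were listed by function, with earlier results of these data known, and no expression level entered the rule. The deposited tables list loci, not genes, and a locus was taken where one of its listed names was on the list of 36 and its value had the status OK in all 15 tables. This gave 40 loci for 29 genes, of 10350 named loci with that status. The thick filament genes had 9 loci for 6 genes, the thin filament genes 12 loci for 11 genes, the Z-disc and linker genes 14 loci for 8 genes, the calcium handling genes 2 loci for 2 genes, and Argk and Mef2 3 loci. No locus was analysed for Mlc1, Mlc2 and Unc-89 of the thick filament, Act88F and TpnC25D of the thin filament, or Zasp67 and tn of the Z-disc, so the actin and myosin light chain genes best known from flight muscle are not covered.

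RNA was taken from whole males of 1 week of age, about 10 flies pooled for each library, and sequenced after poly-A selection. The mutants were Dg[O55]/Dg[O86] (called Dg), Df(3R)Exel6184/Df(3R)Exel6184 (Dys, homozygous for a chromosomal deficiency), Df(3L)BSC450/deltaSyn1[5-2] (Syn1, a deficiency over a deletion allele) and Df(2L)BSC230/deltaNos15 (Nos, likewise), and the control was CantonS/w[1118]. Each genotype was kept for 5 days at 33 °C (temperature stress), for 4 days on yeast paste without sugar (metabolic stress) or for 5 days at 25 °C (unstressed). Each of the 15 groups has 1 library, so no group had a replicate. A deficiency can remove neighbouring genes, and its part in any difference cannot be told apart from that of the named gene.

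Values are FPKM, fragments scaled to the length of the locus and to the mapped fragments of the library, so that levels of different loci can be set side by side. The summed FPKM was 242249 to 347097 per library. The absolute depth is unknown, and the depth relative to the unstressed control library was 0.797 to 1.12. All 12 Dys loci were listed at 0 in the 3 Dys libraries, against 22.9 to 30.1 FPKM at the main Dys locus in control flies, and Syn1 was listed at 0 in the 3 Syn1 libraries, against 6.07 to 7.60 FPKM in control flies. Dg had 12.5 to 19.3 FPKM in Dg flies, against 12.9 to 14.2 FPKM in control flies, and Nos did not exceed 2.30 FPKM in any library, so these values do not check those 2 labels. The titles of the unstressed Dys, Syn1 and Nos libraries name the mutant but add "control genotype". Their genotype labels give the mutant and their treatment labels the control treatment, and they were taken as unstressed mutants. The mitochondrial loci summed to 642 to 1135 FPKM in Dys and Nos libraries and to 1.17 to 2.38 FPKM in all others.

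The contraction loci took 1.05% to 2.47% of the summed FPKM of a library, lowest in Dys under metabolic stress and highest in Dg under metabolic stress. Of the 40 loci, 34 had a mean of at least 1 FPKM and 5 were listed at 0 in some library. The highest median levels were those of Mf (myofilin, a thick filament protein) at 730.5 FPKM, Zasp66 (a Z-disc protein, at a locus that also lists S-Lap2) at 606 FPKM, Ca-P60A (SERCA, the calcium pump) at 500.4 FPKM, Act57B (a muscle actin) at 496 FPKM and Argk (which buffers ATP in muscle) at 413 FPKM. Their ranges over the 15 libraries overlapped widely, for example 399 to 1209 FPKM for Mf and 192 to 970.0 FPKM for Ca-P60A, so that neighbours in this order did not differ beyond their spread. Contraction loci of at least 1 FPKM varied over the 15 libraries with a median SD of 0.47 on the log2 scale (n = 34), against 0.36 for all 7198 loci of that level. The titin-like sls locus and the main locus of Msp-300 (a nesprin that ties nuclei to the cytoskeleton) varied least, with highest values 1.25 and 1.39 times their lowest. Both of these loci list further genes. The other loci of Msp-300, which list no other gene, had highest values 3.23, 3.50 and 7.42 times their lowest. The last of these had a median of 0.0595 FPKM. The locus of TpnC4, the troponin C of flight muscle, varied most among loci above 0 in all libraries, with its highest value 33.1 times its lowest.

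**Figure D1:**
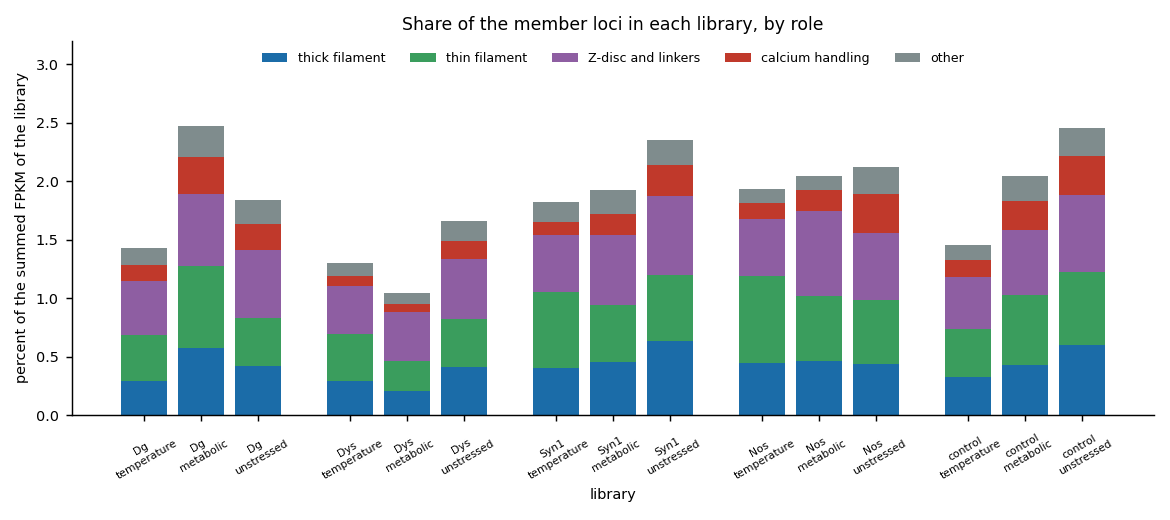
Share of the 40 contraction loci in the summed FPKM of each library (y axis, percent), with 1 bar per library and a colour for each role of the genes. The Dys bar under metabolic stress is the lowest at 1.05% and the Dg bar under metabolic stress the highest at 2.47%.

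Several genes appear at more than 1 locus, and these are called the main, the second, the third and the fourth locus by their mean FPKM. The positions are given as listed, and the genome build behind them is not stated. The main locus of Zasp52, a Z-disc adaptor protein, is listed at 2R from 11704241 to 11704662 and spans 422 bases, and its second locus spans 52964 bases from 11649938 to 11702901. The main and second loci of bt (projectin, an elastic protein that connects thick filaments to the Z-disc) share 1 span on chromosome 4, from 744957 to 808417. The second and the third loci of CAP, an adaptor that binds vinculin, share the span 2R from 6163116 to 6200281, while its main locus, listed together with CG12910, lies at 6152434 to 6156726. Of the 40 loci, 10 list a further gene, and reads of the genes of such a locus cannot be told apart. This holds for fln, Act79B, wupA, TpnC4, sls, Zasp66, Actn, Mlp84B, and the main loci of CAP and Msp-300.

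Contraction loci were lower in Dys flies than in control flies. Of 40 loci, 26 were lower and 0 were higher at an adjusted p below 0.1 in a limma model of log2(FPKM + 1) with terms for genotype and condition. Over all 10350 loci, 21.6% were called lower and 20.3% higher in this comparison. The median log2 difference of the 40 loci was -0.66, against -0.02 over all loci. The spread in this model is the disagreement between the 3 conditions after their mean effects are removed, so a p-value measures that disagreement and not the error between replicate pools. In RNA from whole flies, fewer muscle cells and less RNA per muscle cell cannot be told apart.

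The count in Dys flies depended on the libraries. It was 11 lower loci without the metabolic libraries and 5 without the unstressed ones. Leaving out 1 library gave 11 without control under metabolic stress, 12 without control unstressed and 12 without Dys under metabolic stress, and all of the loci still called in these 3 fits were among the 26. With values rescaled to a common sum over loci that are not mitochondrial, 17 were called lower and 1, the second Zasp52 locus, higher. Over 24 refits with other settings or with a condition or a library left out, the main bt locus, the main CAP locus and Ca-P60A were called lower in each. The call was lost in 17 for Mf, 16 for TpnC47D, 13 each for Prm and Act87E and 9 for Mlp84B, and in 1 to 8 for each of the others.

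**Figure D2:**
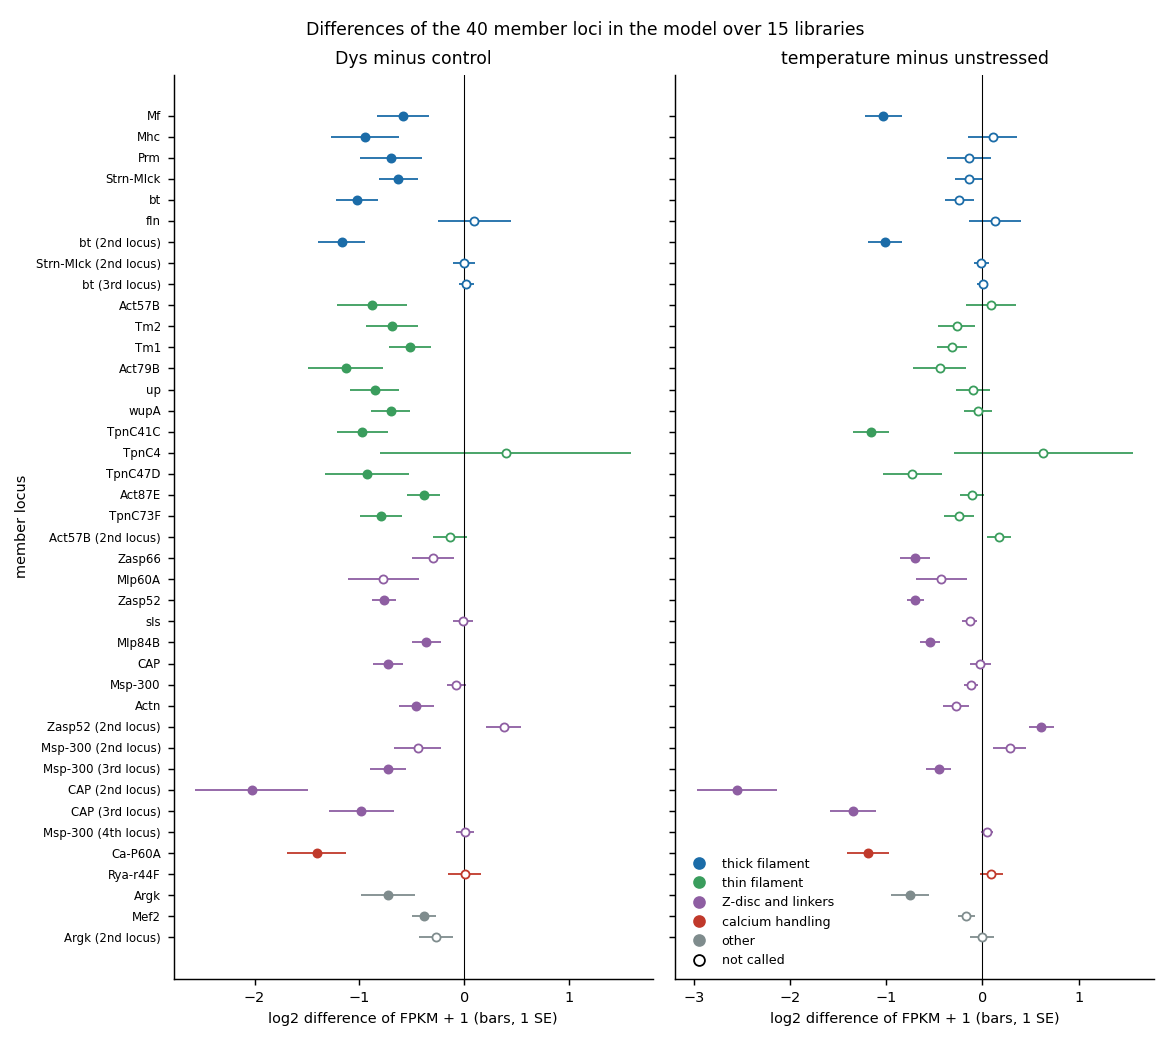
Log2 difference of FPKM + 1 (x axis) for each contraction locus (y axis), Dys minus control on the left and temperature stress minus unstressed on the right, coloured by role, with bars of 1 SE and filled points for loci called at an adjusted p below 0.1. On the left 26 points are filled, all below 0, and on the right 12 are filled, 11 below 0 and the second Zasp52 locus above.

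In the thick filament, 6 of 9 loci were lower in Dys flies, with a median of -0.63. Mhc, the muscle myosin heavy chain, had 227 FPKM under temperature stress, 115 FPKM under metabolic stress and 198 FPKM unstressed in Dys flies, against 294 FPKM under temperature stress, 369 FPKM under metabolic stress and 343 FPKM unstressed in control flies. The 3 Dys libraries were below the 3 control libraries, and the metabolic stress library was the lowest of all 15 (log2 difference -0.95 ± 0.33, SE, adjusted p = 0.0493). The main bt locus had 9.74, 8.32 and 9.55 FPKM in Dys flies in the same order of conditions, against 15.9, 23.3 and 20.7 FPKM in control flies. All 3 Dys values were again below the control values (-1.03 ± 0.20, SE, adjusted p = 0.00458). The second bt locus had 0.372, 0.954 and 0.477 FPKM in Dys flies, against 0.944, 3.43 and 4.24 FPKM in control flies, and here the Dys value under metabolic stress was just above the control value under temperature stress (-1.17 ± 0.23, SE, adjusted p = 0.00442).

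The locus of fln, flightin of the flight muscle thick filament, did not follow. It had 9.65, 4.82 and 8.77 FPKM in Dys flies, against 5.47, 6.80 and 8.88 FPKM in control flies, with overlapping values and no call (0.09 ± 0.35, SE, adjusted p = 0.867). Prm (paramyosin, the core of the thick filament), Mf and Strn-Mlck (a titin-like kinase gene) were called lower, with log2 differences of -0.70, -0.58 and -0.63.

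In the thin filament, 10 of 12 loci were lower in Dys flies, with a median of -0.75. Act79B, an actin of tubular muscles such as those of the legs, had 56.7, 50.4 and 87.1 FPKM in Dys flies under temperature stress, under metabolic stress and unstressed, against 82.0, 203 and 162 FPKM in control flies. The Dys value unstressed lay above the control value under temperature stress, so the groups overlapped across conditions, although Dys was lower within each (-1.13 ± 0.36, SE, adjusted p = 0.0347). Act57B had 456, 254 and 389 FPKM in Dys flies, against 463, 888 and 683 FPKM in control flies. The 3 Dys values were below the control values, by little under temperature stress and by much under metabolic stress (-0.88 ± 0.34, SE, adjusted p = 0.0686). Act87E, another muscle actin, was called lower at -0.39.

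The troponin C genes differed among themselves. TpnC41C had 23.4, 30.3 and 52.2 FPKM in Dys flies, against 33.1, 88.8 and 99.7 FPKM in control flies, and was lower in Dys within each condition (-0.98 ± 0.24, SE, adjusted p = 0.0137). TpnC47D had 7.45, 6.01 and 15.2 FPKM in Dys flies, against 8.91, 31.7 and 19.3 FPKM in control flies, a difference just inside the threshold (-0.93 ± 0.40, SE, adjusted p = 0.0991). TpnC73F was called lower at -0.80. The TpnC4 locus had 84.4, 6.11 and 50.1 FPKM in Dys flies, against 10.3, 30.5 and 37.4 FPKM in control flies. It was higher in Dys under temperature stress and unstressed, lower under metabolic stress, and not called (0.39 ± 1.20, SE, adjusted p = 0.835).

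The loci of the other regulatory proteins of the thin filament were also lower in Dys. Troponin T (up) was called lower at -0.86, troponin I (wupA) at -0.70, and the tropomyosins Tm1 and Tm2 at -0.52 and -0.69. The up and wupA loci had all 3 Dys libraries below all 3 control libraries.

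At the Z-disc and its linkers, 7 of 14 loci were lower in Dys flies, with a median of -0.45. The main Zasp52 locus had 109.5, 192 and 161 FPKM in Dys flies, against 162, 321 and 322 FPKM in control flies, and was lower in Dys within each condition (-0.76 ± 0.11, SE, adjusted p = 0.0011). The second Zasp52 locus went the other way. It was higher in Dys within each condition and was not called (0.38 ± 0.17, SE, adjusted p = 0.113). Actn, alpha-actinin, which crosslinks thin filaments at the Z-disc, had 24.0, 25.3 and 25.4 FPKM in Dys flies, against 27.0, 38.2 and 39.8 FPKM in control flies, with no overlap (-0.46 ± 0.17, SE, adjusted p = 0.0639). The muscle LIM protein locus Mlp84B was called lower at -0.36, and the third Msp-300 locus at -0.73. The sls locus had 158, 155 and 159.8 FPKM in Dys flies, against 152, 156 and 169 FPKM in control flies, and was not called.

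CAP was lower in Dys flies at all 3 of its loci. Its main locus was called lower at -0.73, with all 3 Dys libraries below all 3 control libraries. The second CAP locus was listed at 0, 0 and 1.08 FPKM in Dys flies, against 0, 10.3 and 11.6 FPKM in control flies. It was at 0 under temperature stress in both genotypes (-2.03 ± 0.54, SE, adjusted p = 0.0172), and the size of a difference that involves zeros depends on the value added before taking logs. The third CAP locus was listed at 0, 0.668 and 1.70 FPKM in Dys flies, against 0.316, 4.32 and 3.95 FPKM in control flies (-0.98 ± 0.31, SE, adjusted p = 0.0365).

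Ca-P60A had 209.7, 192 and 399 FPKM in Dys flies, against 358, 871 and 970.0 FPKM in control flies. Dys was lower within each condition, and only its unstressed value exceeded the lowest control value (-1.41 ± 0.28, SE, adjusted p = 0.00516). This locus and the second CAP locus were the 2 of 40 that exceeded 2-fold by limma's treat test (unadjusted P below 0.1), against 3.87% of all loci. The other calcium handling locus is a piece of Rya-r44F (the ryanodine receptor, the calcium release channel) of 476 bases that did not exceed 0.806 FPKM. Argk had 287, 287 and 413 FPKM in Dys flies, against 324, 718 and 667 FPKM in control flies (-0.73 ± 0.26, SE, adjusted p = 0.0514). Mef2, which switches on many contraction genes, had 14.4, 15.7 and 15.7 FPKM in Dys flies, against 17.4, 24.5 and 19.2 FPKM in control flies, a smaller difference with no overlap (-0.38 ± 0.12, SE, adjusted p = 0.029).

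**Figure D3:**
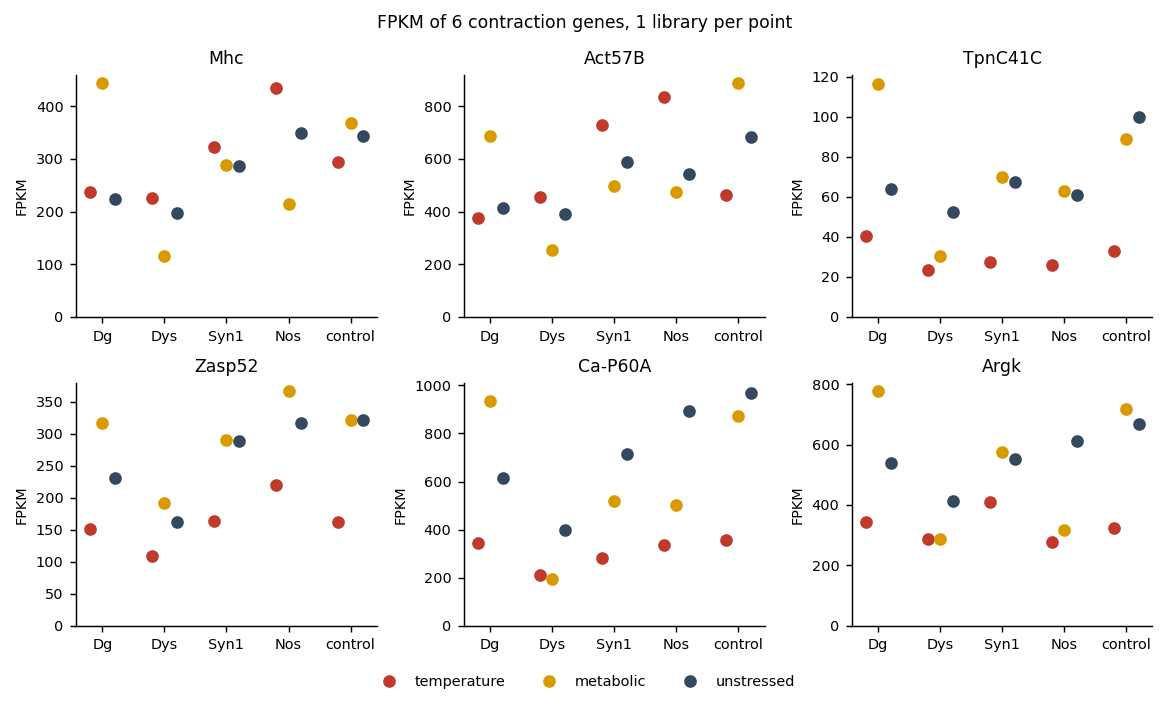
FPKM (y axis) of 6 contraction genes at their main loci, with 1 point per library, genotypes along the x axis and conditions in colour. In the Dys column the Mhc and Act57B points under metabolic stress are the lowest of their panels (115 and 254 FPKM), and for Ca-P60A the 5 temperature stress points lie below the 5 unstressed points.

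Counted over libraries, 13 of 40 loci had all 3 Dys libraries below all 3 control libraries, against 17.8% of all loci, and 26 were lower in Dys within each of the 3 conditions, against 32.5%. The single pairs of libraries, which have no test, differed by condition. At least 2-fold lower in Dys were 0 loci under temperature stress, 20 under metabolic stress and 4 unstressed, against 4.17%, 10.8% and 6.15% of all loci. The median log2 ratios of the 40 loci were -0.12, -0.96 and -0.65. No locus was at least 2-fold lower in all 3 conditions, against 1.88% of all loci. Over the 12 pairs of the 4 mutants with control, 39 of 480 ratios were at least 2-fold lower and 7 at least 2-fold higher, against 5.18% and 3.11% over all loci. The single Dys pair under metabolic stress gave 20 of the 39, so the pooled count does not stand for all 4 mutants.

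Dg, Syn1 and Nos flies gave almost no calls. In Dg 0 of 40 loci were called, against 12.3% lower and 12.4% higher among all loci, and 3 reached an unadjusted p below 0.05, against 32.5%. In Syn1 0 were called, against 5.7% lower and 4.95% higher, and 1 reached that p, against 19.5%. In Nos 1 was called lower, against 6.1% lower and 4.24% higher, and 5 reached that p, against 20.5%. The medians were -0.14 in Dg, -0.05 in Syn1 and -0.02 in Nos. In the single pairs with control under temperature stress, under metabolic stress and unstressed, the medians were -0.07, -0.02 and -0.42 in Dg, 0.10, -0.27 and -0.16 in Syn1, and 0.24, -0.05 and -0.18 in Nos. Unstressed, each of the 4 mutants was below control at most of the 40 loci. The counts were 36 for Dys, 33 for Dg, 32 for Nos and 29 for Syn1, all read against the same control library. This did not hold in every condition. In the same order of mutants, the counts were 27, 26, 13 and 13 under temperature stress and 37, 22, 25 and 33 under metabolic stress. Over all loci, the median log2 ratios of the unstressed pairs were -0.0195 to -0.003, and those of the other pairs -0.0203 to 0.0167. Loci at least 2-fold lower were counted in the order temperature stress, metabolic stress and unstressed. They numbered 0, 3 and 3 in Dg, against 4.0%, 7.28% and 4.86% of all loci. In Syn1 they were 0, 1 and 0, against 3.86%, 5.03% and 2.94%, and in Nos 0, 7 and 1, against 2.98%, 7.07% and 3.02%. The locus called in Nos was the third Msp-300 locus, with 2.53, 3.60 and 4.28 FPKM in Nos flies, against 3.51, 8.59 and 5.11 FPKM in control flies (-0.54 ± 0.17, SE, adjusted p = 0.0935), and its call was lost in 17 of 24 refits.

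The 4 mutants were set against the same control libraries, so Dys was also compared with the mean of the other 3 mutants, a contrast of the same limma model that was added after the values had been seen. The difference itself uses no control library, while its error comes from the spread over all 15 libraries. Of 40 loci, 24 were lower and 1 was higher in Dys, against 22.8% and 21.8% of all loci, and the median was -0.49, against -0.03. In the 2-fold test 0 of 40 passed, against 2.13% of all loci. In this contrast, thick filament loci had 5 of 9 called lower, thin filament loci 8 of 12, and Z-disc and linker loci 7 of 14. Ca-P60A differed by -1.05 ± 0.23, SE, adjusted p = 0.00696, Zasp52 by -0.73 ± 0.09, SE, adjusted p = 0.000441 and Mhc by -0.80 ± 0.27, SE, adjusted p = 0.0402. The locus called higher was the second Zasp52 locus (0.37 ± 0.14, SE, adjusted p = 0.0621). The count of lower loci was 10 without the unstressed libraries and 11 without Dys under metabolic stress. Mhc in the other mutants ranged from 214 FPKM in Nos under metabolic stress to 444 FPKM in Dg under metabolic stress, so these libraries did not all lie above the Dys libraries.

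**Figure D4:**
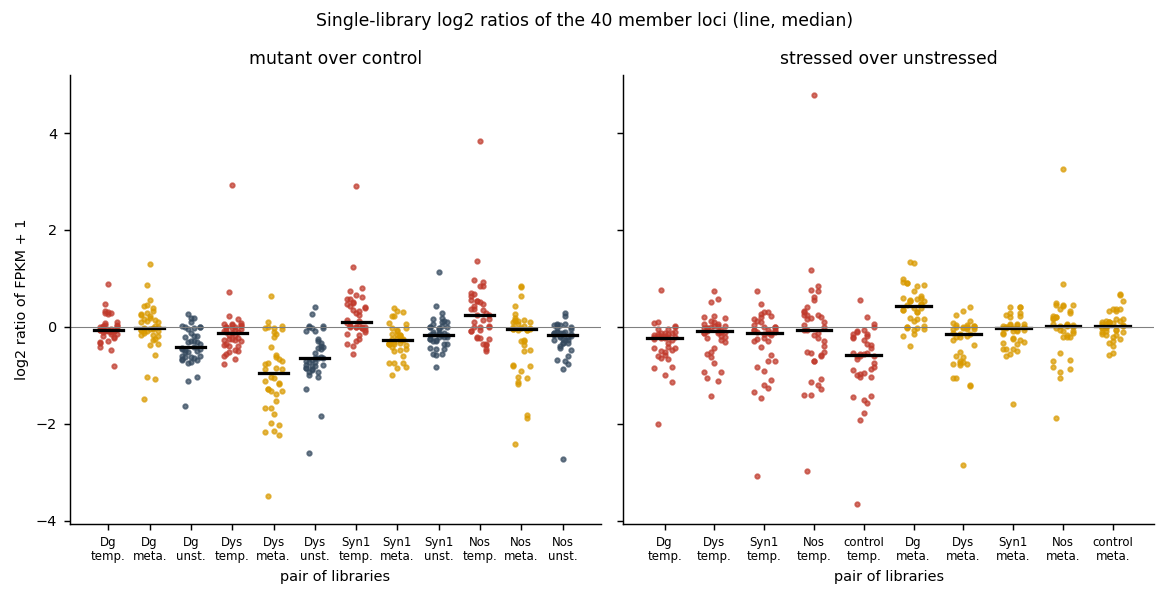
Log2 ratio of FPKM + 1 (y axis) of the 40 contraction loci for each pair of single libraries, mutant over control on the left and stressed over unstressed on the right, with a black line at the median of each pair. The Dys over control pair under metabolic stress has the lowest median on the left (-0.96), and the temperature stress pair of control flies has the lowest on the right (-0.58).

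A smaller set of loci was lower under temperature stress. Of 40 loci, 11 were called lower and 1 higher than in unstressed flies over the 5 genotypes, against 12.3% lower and 13.8% higher among all loci. The spread behind these calls is the same pooled disagreement as in the mutant comparisons. The median log2 difference was -0.15, against -0.01. The loci called were 2 of 9 in the thick filament, 1 of 12 in the thin filament, 6 lower and 1 higher of 14 at the Z-disc and its linkers, Ca-P60A of the 2 calcium handling loci, and Argk. The count stayed between 10 and 12 lower and 1 higher when each library was left out in turn.

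Values under temperature stress are given for Dg, Dys, Syn1, Nos and control flies in that order. Ca-P60A had 343, 209.7, 279.7, 336 and 358 FPKM under temperature stress, against 617, 399, 713, 894 and 970.0 FPKM unstressed. All 5 stressed values were below all 5 unstressed values (-1.19 ± 0.22, SE, adjusted p = 0.00544). TpnC41C had 40.3, 23.4, 27.6, 25.7 and 33.1 FPKM under temperature stress, against 64.0, 52.2, 67.1, 60.7 and 99.7 FPKM unstressed, again without overlap (-1.16 ± 0.19, SE, adjusted p = 0.00353). Mf had 399, 434, 518, 406 and 423 FPKM under temperature stress, against 789.8, 730.5, 1190.0, 666 and 1209 FPKM unstressed, also without overlap (-1.03 ± 0.19, SE, adjusted p = 0.00593).

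Argk had 343, 287, 411, 278 and 324 FPKM under temperature stress, against 539, 413, 551, 610.3 and 667 FPKM unstressed, and the highest stressed value, in Syn1, was just below the lowest unstressed value, in Dys (-0.75 ± 0.20, SE, adjusted p = 0.0258). Zasp66 had 469, 346, 381, 382 and 380.1 FPKM under temperature stress, against 675, 468, 715, 618 and 734 FPKM unstressed. It was lower in each genotype, but the stressed Dg value was just above the unstressed Dys value (-0.70 ± 0.15, SE, adjusted p = 0.0122). Its locus also lists S-Lap2. Mlp84B was called lower at -0.54 and the third Msp-300 locus at -0.45. In all, 7 loci had all 5 stressed libraries below all 5 unstressed libraries, against 2.84% of all loci, and 16 were lower in each of the 5 genotypes, against 16.1%.

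The 2 loci of Zasp52 went in opposite directions. The main locus had 151, 109.5, 163, 219 and 162 FPKM under temperature stress, against 230.4, 161, 289, 316 and 322 FPKM unstressed, and was lower in each genotype (-0.70 ± 0.09, SE, adjusted p = 0.00104). The second locus had 49.6, 41.4, 23.7, 30.7 and 35.5 FPKM under temperature stress, against 28.9, 28.8, 16.9, 17.7 and 23.7 FPKM unstressed, and was higher in each genotype (0.61 ± 0.13, SE, adjusted p = 0.011). The ratio of the second to the main locus, a pair picked after the values were seen, was 0.328, 0.378, 0.145, 0.140 and 0.219 under temperature stress, against 0.125, 0.179, 0.0586, 0.0560 and 0.0736 unstressed. It was higher under stress in every genotype. Both calls held in all 25 refits.

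The lower-level loci of bt and CAP had low values under temperature stress. The second bt locus had 0.685, 0.372, 0.921, 0.424 and 0.944 FPKM under temperature stress, against 2.72, 0.477, 3.10, 2.46 and 4.24 FPKM unstressed. Only the unstressed Dys value was as low as the stressed values (-1.01 ± 0.18, SE, adjusted p = 0.00445), and the main bt locus was not called (-0.24 ± 0.15, SE, adjusted p = 0.312). The second CAP locus was listed at 0 in all 5 temperature stress libraries, against 3.03, 1.08, 7.49, 6.86 and 11.6 FPKM unstressed (-2.56 ± 0.42, SE, adjusted p = 0.00351). The third CAP locus was listed at 0.609, 0, 0, 0.906 and 0.316 FPKM under temperature stress, against 1.27, 1.70, 1.77, 4.06 and 3.95 FPKM unstressed (-1.34 ± 0.24, SE, adjusted p = 0.00521). These were the 2 of 40 loci past the 2-fold test, against 0.792% of all loci. Both belong to CAP and share the same span, so they do not stand for separate genes. With 1 locus per gene, 0 loci passed. The size of a difference that involves zeros depends on the value added before taking logs. The second CAP locus was at least 2-fold lower in all 5 genotypes, as were 0.155% of all loci, whereas its main locus was not called (-0.02 ± 0.11, SE, adjusted p = 0.92).

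**Figure D5:**
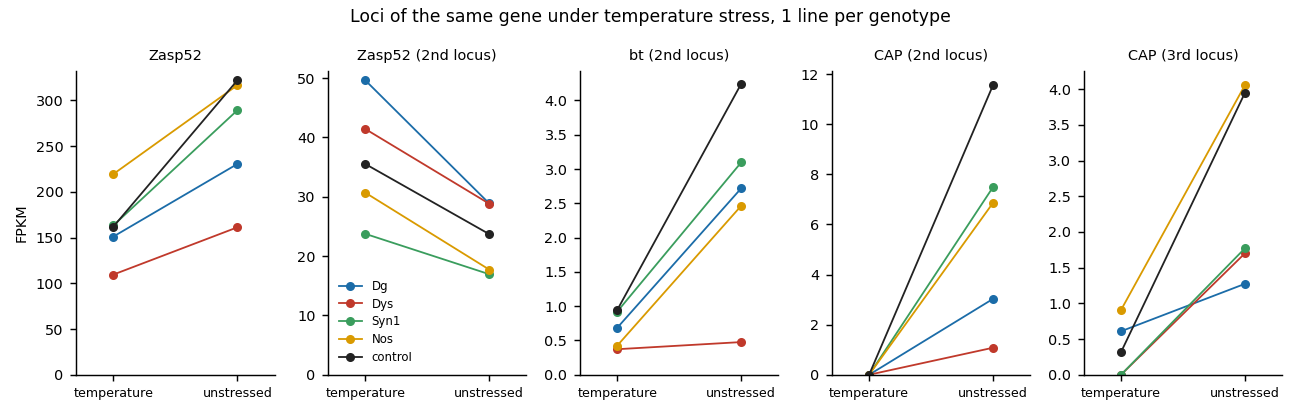
FPKM (y axes, each with its own scale) of 5 loci of Zasp52, bt and CAP in temperature stress and unstressed libraries (x axes), with 1 line per genotype. Both Zasp52 panels show 5 lines of 1 direction each, lower under stress for the main locus and higher for the second, and all 5 stressed values of the second CAP locus are 0.

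Other contraction genes gave no call under temperature stress. Mhc had 238, 227, 323, 435 and 294 FPKM under temperature stress, against 225, 198, 286, 350.2 and 343 FPKM unstressed. It was higher in Dg, Dys, Syn1 and Nos and lower in control flies (0.11 ± 0.25, SE, adjusted p = 0.811). The fln locus had 7.16, 9.65, 14.3, 15.7 and 5.47 FPKM under temperature stress, against 8.62, 8.77, 12.3, 6.33 and 8.88 FPKM unstressed (0.13 ± 0.27, SE, adjusted p = 0.781). The TpnC4 locus had 19.7, 84.4, 83.3, 160.1 and 10.3 FPKM under temperature stress, against 30.2, 50.1, 83.6, 4.84 and 37.4 FPKM unstressed, and its widest gap was in Nos (0.63 ± 0.93, SE, adjusted p = 0.685). These values overlapped between the conditions.

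Act79B had 84.3, 56.7, 116, 97.6 and 82.0 FPKM under temperature stress, against 96.6, 87.1, 108, 143 and 162 FPKM unstressed. It was higher under stress in Syn1 and lower in the other genotypes, and not called (-0.45 ± 0.28, SE, adjusted p = 0.29). Actn had 25.5, 24.0, 32.4, 37.9 and 27.0 FPKM under temperature stress, against 32.2, 25.4, 40.1, 41.7 and 39.8 FPKM unstressed, and Mef2 had 16.1, 14.4, 18.9, 19.3 and 17.4 FPKM under temperature stress, against 18.9, 15.7, 20.8, 22.7 and 19.2 FPKM unstressed. Both were lower under stress in each genotype, by amounts that were not called (-0.28 ± 0.13, SE, adjusted p = 0.177 for Actn and -0.17 ± 0.09, SE, adjusted p = 0.22 for Mef2).

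Metabolic stress gave no call. None of the 40 loci was called over the 5 genotypes with limma, and 0 reached an unadjusted p below 0.05, against 0.357% called lower, 2.57% called higher and 14.5% at that unadjusted p among all loci. The median was 0.01, against -0.02. The single pairs of libraries had different medians. The median log2 ratio of metabolic stress over unstressed was 0.43 in Dg, -0.15 in Dys, -0.02 in Syn1, 0.03 in Nos and 0.02 in control flies. Mhc had 444 FPKM in Dg under metabolic stress, against 225 FPKM unstressed, and 115 FPKM in Dys under metabolic stress, against 198 FPKM unstressed. In Syn1 Mhc had 289 FPKM under metabolic stress, against 286 FPKM unstressed, and in Nos it had 214 FPKM under metabolic stress, against 350.2 FPKM unstressed. These pairs are 1 library each and have no test. Over the 10 pairs of stressed and unstressed libraries, with both stresses pooled, 35 of 400 ratios were at least 2-fold lower and 5 at least 2-fold higher, against 2.1% and 2.71% over all loci. The metabolic pairs alone had 0 such lower loci in Dg, 5 in Dys, 1 in Syn1, 2 in Nos and 0 in control. Among all loci the shares in these pairs were 0.82%, 1.35%, 0.65%, 2.43% and 0.36%.

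Under metabolic stress, in Dg, Dys, Syn1, Nos and control flies in that order, Ca-P60A had 936, 192, 517, 500.4 and 871 FPKM, against 617, 399, 713, 894 and 970.0 FPKM unstressed. Argk had 778, 287, 576, 318 and 718 FPKM under metabolic stress, against 539, 413, 551, 610.3 and 667 FPKM unstressed. Both were higher under stress in Dg and lower in Dys and Nos. The main Zasp52 locus had 317, 192, 289.7, 366 and 321 FPKM under metabolic stress, against 230.4, 161, 289, 316 and 322 FPKM unstressed, and was close to its unstressed value in Syn1 and control flies.

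Act79B had 246, 50.4, 144, 98.2 and 203 FPKM under metabolic stress, and its highest value of all 15 libraries was the one in Dg. The TpnC4 locus had 76.7, 6.11, 27.1, 55.1 and 30.5 FPKM under metabolic stress, and the fln locus 13.1, 4.82, 8.06, 6.45 and 6.80 FPKM. Both were highest in Dg and lowest in Dys. Actn had 48.5, 25.3, 31.4, 42.5 and 38.2 FPKM and Mef2 23.8, 15.7, 21.3, 20.0 and 24.5 FPKM under metabolic stress, and both were lowest in Dys.

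The stress responses of the 4 mutants together were compared with that of control flies. Under temperature stress the median log2 ratio of the 40 loci was -0.23 in Dg, -0.09 in Dys, -0.12 in Syn1, -0.06 in Nos and -0.58 in control flies. At least 2-fold lower were 2 loci in Dg, 3 in Dys, 6 in Syn1, 7 in Nos and 9 in control flies, against 1.89%, 3.04%, 3.07%, 3.75% and 3.64% of all loci. On the log2 scale, the summed FPKM of the thin filament loci changed by -0.19 in Dg, -0.0056 in Dys, 0.11 in Syn1, 0.28 in Nos and -0.76 in control flies. The thick filament sums changed by -0.73 to -0.15 in the mutants and by -1.05 in control flies, and the sums of the Z-disc and its linkers by -0.56 to -0.27 and by -0.74. The calcium handling sums changed by -1.41 to -0.85 in the mutants, close to the -1.44 in control flies at one end, and the sums of Argk and Mef2 by -1.09 in Nos to -0.41 in Syn1, a range that held the -1.01 in control flies. Such sums follow their loci of highest level and not each locus of a role. Mean levels were 729 FPKM for Mf and 290 FPKM for Mhc in the thick filament. They were 542 FPKM for Ca-P60A and 0.164 FPKM for the Rya-r44F locus, and 473 FPKM for Argk and 19.2 FPKM for Mef2. The difference between mutants and control had a median of 0.37, against 0.01 over all loci, and was above 0 for 35 of 40 loci, against 51.7% of all loci. It was called for 0 of 40 loci with limma, against 0.0% of all loci in either direction, and 0 of 40 reached an unadjusted p below 0.05, against 3.7%. Under metabolic stress 0 of 40 were called, against 0.0%, and 0 reached that p, against 3.77%, with a median of 0.03. The control response rests on 1 library per condition.

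Genes that work with the sarcomere were counted from lists chosen with results of these data known. Not every listed gene had a locus. Genes with a locus were 14 of 23 for excitation and calcium, 10 of 14 for thin filament ends and 10 of 20 for glycolysis. They were 17 of 21 for adhesion, 20 of 23 for regulators and 15 of 18 for chaperones and turnover. The shares of all loci in Dys flies are again 21.6% lower and 20.3% higher. Of 28 loci for excitation and calcium signalling, 12 (42.9%) were lower and 0 higher in Dys flies. The 12 loci belong to 7 genes, and 6 of them are loci of slo, a potassium channel gene. Among the 12 were jp (junctophilin, which holds the reticulum to the surface membrane, -1.05) and the slo locus with the largest difference (-1.39). Of 16 loci for thin filament ends and assembly, 3 (18.8%) were lower and 2 higher, with tmod (tropomodulin, which caps the pointed end) at -1.06 at its main locus. Of 11 loci for glycolysis and the glycerol phosphate shuttle, 7 (63.6%) were lower and 0 higher, with Gpo-1 at -1.40 and Gapdh2 at -1.15. The 7 loci belong to 6 genes, 2 of them are loci of Hex-A, and those of Eno and Gapdh1 list further genes. Of 34 adhesion and attachment loci, 9 (26.5%) were lower and 3 higher. Of 51 loci of muscle regulators, 16 (31.4%) were lower and 6 higher. These 16 loci belong to 10 genes, and 4 of them are loci of how. Of 17 loci for myosin chaperones and turnover, 5 (29.4%) were lower and 1 higher. The lower shares of the adhesion, thin filament end and chaperone lists lie near that of all loci.

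Under temperature stress, where 12.3% of all loci were lower and 13.8% higher, the same lists gave 5 lower and 3 higher for excitation and calcium, 2 and 4 for thin filament ends, 3 and 0 for glycolysis, 2 and 6 for adhesion, 11 and 7 for regulators, and 3 and 2 for chaperones and turnover. The 11 lower regulator loci belong to 6 genes, and 4 of them are loci of hth. The lists were not tested against all loci. A locus of how, an RNA-binding regulator of muscle attachment, was called lower at -1.44, and a locus listing the small heat shock genes Hsp67Ba and Hsp67Bc was called higher at 1.33. Among the 11 glycolysis loci, Gpo-1 was called lower at -0.77.

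The other comparisons gave fewer calls on these lists, as over all loci. In Dg flies, with 12.3% of all loci lower and 12.4% higher, 5 adhesion loci were lower and 3 higher, 5 regulator loci lower and 5 higher, 1 excitation and calcium locus lower and 3 higher, and 1 chaperone locus lower. In Syn1 flies, with 5.7% lower and 4.95% higher, 2 adhesion loci were lower and 3 higher, 4 regulator loci lower and 1 higher, 2 excitation and calcium loci lower, and 1 locus of thin filament ends higher. In Nos flies, with 6.1% lower and 4.24% higher, 2 adhesion loci were lower and 2 higher, 5 regulator loci lower and 1 higher, and 1 excitation and calcium locus higher. Metabolic stress, with 0.357% lower and 2.57% higher, gave 2 adhesion loci and 1 chaperone locus higher and 0 lower. No glycolysis locus was called in these 4 comparisons.

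Marker loci of other tissues were counted against the same shares of all loci, 21.6% lower and 20.3% higher in Dys flies. Not every listed marker had a locus. Genes with a locus were 3 of 7 for photoreceptors, 4 of 7 for testis and 2 of 6 for accessory gland. Fat body, neurons, and yolk and eggshell each had 3 of 5, and gut had 2 of 4. Of 6 testis marker loci, 3 were higher and 0 lower in Dys flies, and their summed FPKM was 1494 to 1839.9 in Dys libraries, against 971 to 1260.4 in control libraries. Photoreceptor markers (3 loci) were higher at 3 loci each in Dg, Syn1 and Nos and at 0 in Dys, with summed FPKM of 38.0 to 98.0 in Dys libraries, against 31.3 to 89.7 in control libraries. Among all loci, 12.4% were higher in Dg, 4.95% in Syn1 and 4.24% in Nos. In Dys flies 1 of 2 accessory gland loci (318 to 604 FPKM summed, against 393 to 1930.4), 1 of 4 fat body loci (5.84 to 115 FPKM, against 47.8 to 92.6), 1 of 2 gut loci (833 to 6070.2 FPKM, against 1915 to 4779.8) and 1 of 9 neuron loci (32.8 to 52.4 FPKM, against 46.0 to 53.2) were lower than in control flies. Of 3 loci for yolk and eggshell, which females make, 2 were lower in Dys, and they summed to 3.06 to 10.2 FPKM over all libraries. Under temperature stress, 1 photoreceptor and 1 yolk locus were higher, 1 testis and 1 accessory gland locus were lower, 1 neuron locus was lower and 1 higher, and 0 fat body and 0 gut loci were called. In that comparison 12.3% of all loci were lower and 13.8% higher. The part of these tissues in the differences of the contraction loci was not tested.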

How the data were processed

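RNA of whole males was sequenced as 1 library for each of 5 genotypes and 3 conditions. The authors deposited FPKM values per locus with a position and a status, and the tool, annotation and genome build behind these tables are not given in the sources used here. The submitters' processing notes name STAR, DESeq2 and BDGP6, but the listed positions differ from that build, so they are given as listed. Of 14124 loci, 10776 carry a gene name and 10350 had the status OK in all 15 tables. A value of 1 was added before log2, and a linear model of genotype plus condition was fitted in limma (version 3.58.1, R 4.3.3) over all 15 libraries, leaving 8 residual and 2.76 prior degrees of freedom, with Benjamini-Hochberg adjustment over all 10350 loci. A locus was called at an adjusted p below 0.1. A second test, limma's treat, used a 2-fold threshold with unadjusted P below 0.1, after the study. A model with a term for mutants against control under each stress had 6 residual degrees of freedom. The script was tested on simulated data. Tests are two-sided.

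Other settings tried were a smaller pseudocount (0.1), only loci averaging at least 1 FPKM, median-ratio scaling, a common non-mitochondrial sum, a trended prior variance, no condition term, adjusted p at 0.05, loci that list 1 gene, 1 locus per gene, and leaving out conditions, genotypes or single libraries. The single-library fits and the comparison of Dys with the other mutants were added after the data were seen. The members and lists were chosen with earlier results of these data known. Values in every library are given for anchors of each role, whatever their result. Called loci of a mutant against control, or a stress against unstressed, have values only in the libraries compared. These are at most the 10 loci with the largest differences in each such comparison. Act88F, one of the anchors, has no locus analysed. Other tools were Python 3.11.15, numpy 2.4.6, pandas 2.3.3 and matplotlib 3.10.9.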

Additional observations from a re-analysis of the deposited data

How the results depend on the processing

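Each group has 1 library and the labels give no replicate numbers, so there was no replicate to pair on. Libraries were matched by condition, or by genotype for the stresses, through the terms of the model. Absolute depth is unknown, and a value listed at 0 sets no upper limit.

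In Dys against control (26 lower, 0 higher, 2 past the 2-fold test), the lower count was 17 with the common non-mitochondrial sum, 11 with no condition term, 5 without unstressed libraries, 11 without metabolic libraries and 16 with adjusted p at 0.05. The higher count was 1 with median-ratio scaling and 1 with the common sum. The 2-fold count was 1 with median-ratio scaling, the common sum and 1 locus per gene, and 0 with no condition term, without unstressed and without metabolic libraries. In Dys against the other mutants (24 lower, 1 higher, 0 past the 2-fold test), the lower count was 10 without unstressed libraries. The higher count was 2 with pseudocount 0.1 and 0 with the common sum, no condition term, without unstressed, without temperature libraries, adjusted p at 0.05 and 1 locus per gene. The 2-fold count was 3 with pseudocount 0.1 and 2 without temperature libraries. In Dg, 2 were lower without temperature libraries, and in Syn1, 1 without metabolic libraries. In Nos (1 lower, 0 higher), 0 were lower with the common sum, the trended prior, no condition term, adjusted p at 0.05, 1 locus per gene and without any 1 of the 3 conditions, and 1 was higher with pseudocount 0.1, the common sum and the trended prior.

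Under temperature stress (11 lower, 1 higher, 2 past the 2-fold test), 1 locus per gene gave 7, 0 and 0, and the 2-fold count was 1 without control, without Syn1 and without Nos libraries and 4 without Dg libraries. With pseudocount 0.1 the median of mutants minus control was 0.46, and ratios at least 2-fold higher numbered 17 over the mutant and control pairs, against 7, and 14 over the stress pairs, against 5.

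Leaving out 1 library gave 11 to 27 lower, 0 to 1 higher and 0 to 3 past the 2-fold test in Dys (median -0.78 to -0.41), 11 to 25, 0 to 1 and 0 to 2 in Dys against the other mutants (-0.61 to -0.34), 0 to 4 lower and 0 to 1 higher in Dg (-0.31 to -0.04), 0 to 1 lower in Syn1 (-0.20 to 0.00), 0 to 3 lower and 0 to 2 higher in Nos (-0.12 to 0.08), 10 to 12 lower, 1 higher and 1 to 4 past the 2-fold test under temperature stress (-0.24 to -0.12), and 0 called under metabolic stress (-0.06 to 0.10).

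No called difference changed sign. Of the 14 loci not called in Dys, 7 changed sign in some refit, namely fln (-0.22 without temperature libraries, -0.19 to 0.31 without single libraries), the second Strn-Mlck locus (0.0053 with the common non-mitochondrial sum, -0.0276 to 0.0206 without single libraries), TpnC4 (-0.87 without temperature libraries, -0.55 to 1.59 without single libraries), sls (0.017 with median-ratio scaling, 0.11 with the common non-mitochondrial sum, 0.0226 without unstressed libraries, -0.0632 to 0.0157 without single libraries), the main Msp-300 locus (0.0499 with the common non-mitochondrial sum), the fourth Msp-300 locus (-0.0185 with pseudocount 0.1, -0.0357 without temperature libraries, -0.0451 to 0.0358 without single libraries) and Rya-r44F (-0.0858 with pseudocount 0.1, -0.0058 without unstressed libraries, -0.0446 without metabolic libraries, -0.0701 to 0.13 without single libraries). Of the 28 not called under temperature stress, 10 did, namely Mhc (-0.0216 to 0.25 without single libraries), fln (-0.13 without Nos libraries, -0.10 to 0.32 without single libraries), the second Strn-Mlck locus (0.0051 without control libraries, 0.0045 without Dys libraries, 0.0118 without Syn1 libraries, -0.0873 to 0.0145 without single libraries), Act57B (-0.0372 without Nos libraries, -0.0637 to 0.30 without single libraries), up (0.0024 with the common non-mitochondrial sum, 0.0302 without control libraries, -0.18 to 0.0132 without single libraries), wupA (0.0504 with the common non-mitochondrial sum, 0.0802 without control libraries, -0.14 to 0.0696 without single libraries), TpnC4 (-0.41 without Nos libraries, -0.30 to 1.20 without single libraries), the main CAP locus (0.0754 with the common non-mitochondrial sum, 0.0248 without control libraries, 0.0137 without Dg libraries, 0.0029 without Dys libraries, -0.0943 to 0.0496 without single libraries), Rya-r44F (-0.0712 without Syn1 libraries, -0.0431 to 0.17 without single libraries) and the second Argk locus (0.0004 with median-ratio scaling, 0.038 with the common non-mitochondrial sum, 0.0635 without control libraries, 0.0404 without Dg libraries, 0.0336 without Syn1 libraries, -0.14 to 0.0881 without single libraries). In the other comparisons 20 of 40 loci not called changed sign in some refit in Dg, 25 of 40 in Syn1, 18 of 39 in Nos and 24 of 40 under metabolic stress. Causes of these changes were not tested.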

Other observations

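Loci of 2 genes on the list were left out because their status was OK in 12 of 15 tables. The Unc-89 locus (obscurin, a protein of the M-line) spans 848 bases, and over the 15 tables its listed values ran from 0.0536 to 23.3 FPKM. The locus listing Rya-r44F together with CG30349 and sec31 spans 1742 bases, and its listed values ran from 0.172 to 82.9 FPKM.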
